A study of Homo sapiens with 12 samples.

Results

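PDGFRA, KIT and KDR lie side by side on chromosome 4, and the stretch described here runs from 100 kb before PDGFRA to 100 kb after KDR (chr4:54129293-55225595, GRCh38, 1.10 Mb). Every ATAC-seq peak or entry of 9 deposited lists that fell in it was taken, and overlapping ones were merged into sites, which gave 216 sites out of 399183 across the genome. The stretch was chosen by the fusion construct's -log10 p at a site in KDR, among the strongest of its gains, so the values of that site, and those of the sites around it in the same lists, are descriptions and carry no test. Of the 216 sites, 159 were called in at least 1 list, and the other 57 had only entries that failed the reproducibility limit explained below.

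The 3 genes encode related receptor tyrosine kinases: a ligand binds outside the cell, receptors pair, and the kinase inside the cell is switched on. PDGFRA binds platelet-derived growth factors and is typical of mesenchymal cells. KIT binds stem cell factor (KITLG) and is best known from blood stem cells, mast cells, melanocytes and germ cells. KDR, also called VEGFR2, is the main signalling receptor for VEGF on endothelial cells. ATAC-seq uses the Tn5 transposase to tag open chromatin, so a peak marks DNA that was accessible, not a gene that was expressed.

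The cells were U2OS, a human osteosarcoma line, and the design has 6 groups of 2 samples. In what is called the FOXA2 set here, the groups were cells labelled wild type, cells with Tet-on FOXA2 (full length) and cells with Tet-on FOXA2dCTD (the construct lacking its CTD), with 1 list per sample. The SOX2 set held a wild type whose label names the SOX2 cell line, Tet-on SOX2, and Tet-on SOX2FOXA2CTD, called the fusion here, with 1 list per group. FOXA2 and SOX2 are pioneer transcription factors, proteins that can bind DNA packed in nucleosomes. All construct samples had 500 ng/ml doxycycline for 4 days, which switches a Tet-on gene on. Genotype and treatment are not given for either wild type, although the protocol text of all samples mentions doxycycline, so whether wild-type cells received it is not known. Whether a construct line was 1 clone or a pool is not given in the sources used here.

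Lists differed widely in length, and read depth is unknown. The FOXA2 set held 19862 and 25088 peaks for the libraries labelled wild type 1 and 2, 161136 and 57946 for full length 1 and 2, and 78820 and 146854 for CTD deletion 1 and 2. Their lowest -log10 p values ran from 2.01 to 5.43. In the SOX2 set 48142 of 110813 entries (wild type), 65628 of 147763 (SOX2) and 75544 of 177650 (fusion) passed a global IDR of at most 0.05. IDR, the irreproducible discovery rate, measures how well a peak repeats between a pair of inputs. The inputs were presumably both samples of a group, which no label states. Wild type 2 and full length 2 had no mitochondrial peak and the other 7 lists had 2 each, so by this trait the FOXA2 set splits into 2 kinds of list, a split that no label records. All 9 lists had a peak over FOXA2. Its highest -log10 p was 9.08 and 44.2 in wild type 1 and 2 and 17.4 and 183 in full length 1 and 2. It was 20.0 and 22.7 in CTD deletion 1 and 2, and 12.8, 10.9 and 6.58 in the wild type of the SOX2 set, SOX2 and the fusion. Over SOX2, 8 lists had a peak, all but wild type 2. Both genes thus had a peak in some wild types, so its presence gives no check of which construct a library carried. Whether the values follow the construct was not tested. As for the tissue label, the start of RUNX2, a bone regulator, had a peak in 7 lists and that of VIM in 6, while the endothelial genes TEK and TIE1 and the blood-cell gene PTPRC had none. CD34, listed as a blood-cell gene, had a peak in 3 lists, both of full-length FOXA2 and the wild type of the SOX2 set. COL1A1, COL1A2, TWIST1, CDH5, PECAM1 and SPI1 were not looked up for want of a start.

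The DNA just before each receptor's start is shown because the lists treated these starts differently. Each sequence is the 250 bases before a RefSeq start (GRCh38.p14), 5′ to 3′ in the direction of transcription. Capitals mark a SOX motif match, and the sequences without capitals had no match.
PDGFRA upstream start, chr4:54229043-54229292, plus strand: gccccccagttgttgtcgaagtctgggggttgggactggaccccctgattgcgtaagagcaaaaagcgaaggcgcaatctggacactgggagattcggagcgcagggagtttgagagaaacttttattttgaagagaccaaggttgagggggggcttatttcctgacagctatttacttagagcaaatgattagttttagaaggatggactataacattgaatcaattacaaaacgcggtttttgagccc
PDGFRA downstream start, chr4:54233710-54233959, plus strand: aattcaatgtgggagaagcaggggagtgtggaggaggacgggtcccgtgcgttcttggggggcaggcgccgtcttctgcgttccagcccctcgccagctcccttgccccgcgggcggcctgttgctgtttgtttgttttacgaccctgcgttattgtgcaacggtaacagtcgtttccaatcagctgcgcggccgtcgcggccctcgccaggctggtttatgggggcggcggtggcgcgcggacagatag
KIT start, chr4:54657707-54657956, plus strand: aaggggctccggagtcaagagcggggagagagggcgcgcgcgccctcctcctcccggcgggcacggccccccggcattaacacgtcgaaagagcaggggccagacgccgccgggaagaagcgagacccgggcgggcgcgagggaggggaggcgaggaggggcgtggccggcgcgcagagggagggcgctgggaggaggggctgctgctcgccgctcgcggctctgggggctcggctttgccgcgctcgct
KDR start, chr4:55125596-55125845, minus strand: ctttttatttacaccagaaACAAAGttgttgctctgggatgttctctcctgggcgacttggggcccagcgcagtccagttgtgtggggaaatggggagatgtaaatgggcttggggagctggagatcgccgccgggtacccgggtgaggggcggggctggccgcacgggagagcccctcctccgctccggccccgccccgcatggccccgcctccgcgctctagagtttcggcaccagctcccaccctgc
Motifs searched on both strands were FOXA (TGTTTAC or TGTTTGC), SOX (ACAAAG or ACAATG) and AP-1 (TGAGTCA or TGACTCA). The only match was ACAAAG in the KDR sequence, at -231 from the start. Of 34961 promoter sequences of the same length, 6.08% held the FOXA letters, 21.2% the SOX letters and 4.17% the AP-1 letters. KIT had the densest sequence, with 34 CpG dinucleotides and 76.4% GC, and 94.2% of promoters had no more CpG. The downstream PDGFRA start had 25 CpG and 64.0% GC, KDR had 17 and 65.2%, and the upstream PDGFRA start had 8 and 46.8%. The medians of all promoters were 11 CpG and 58.4% GC.

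The starts of these genes were called unevenly. PDGFRA had a peak within 1 kb of a start in 8 of 9 lists, KDR in 4, and KIT in none. No site within 1 kb of the KIT start existed in any list, not even as an entry that failed IDR. Among 15812 protein-coding genes, 23.3% had a peak at a start in all 9 lists and 24.3% in no list. List by list the share was 38.5%, 36.7%, 66.2%, 58.1%, 51.8%, 66.4%, 57.6%, 60.1% and 55.1%, in the order wild type 1 and 2, full length 1 and 2, CTD deletion 1 and 2, wild type of the SOX2 set, SOX2 and fusion. The 9 values given for a site below follow this same order, and a position such as -63.7 kb is counted from the nearest start of the named gene, with minus for upstream. A -log10 p depends on depth and threshold, so it is read within its list, as a rank or as a percentile (the share of the list at or below it).

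**Figure D1:**
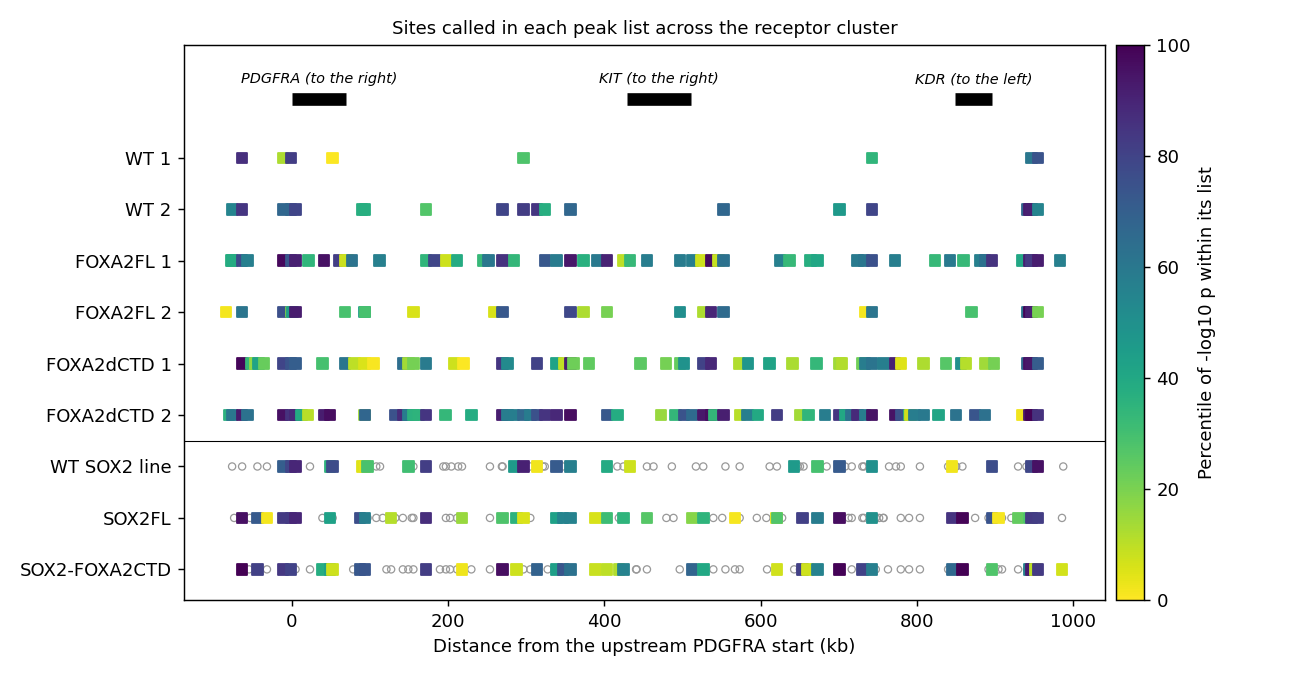
Sites called in each list (rows) by distance in kb from the upstream PDGFRA start; colour is the percentile of -log10 p within the list, open circles are entries that failed IDR, and black bars are the genes with the direction of transcription. The sites at -11.5 and -1.4 kb of PDGFRA and at -50.5 and -58.9 kb of KDR were called in all 9 lists, and the KIT start was bare in all 9; wild type 1 called 8 sites and CTD deletion 2 called 67.

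Around PDGFRA, the receptor typical of mesenchymal cells, a few sites were called in every list or nearly so, while most were called in 1 list or none. The site at -1.4 kb (chr4:54227253-54228481) was called in all 9 lists, with -log10 p of 11.1, 13.4, 4.81, 29.6, 6.54, 7.03, 21.1, 22.0 and 15.2. A further site at -11.5 kb (chr4:54217178-54218407) was also called in all 9, at 5.26, 13.4, 11.3, 18.8, 7.28, 10.9, 17.7, 21.9 and 16.4. Neither site separated the constructs from the wild types, since every list had a peak there. At the upstream start itself, small sites at -0.2 kb and +0.9 kb were called in full length 2 only, at 8.61 and 11.4.

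The downstream PDGFRA start, the CpG-rich one, lay inside a site of 2.3 kb (chr4:54232834-54235162). It was called in 7 lists: wild type 2 (16.5), full length 1 and 2 (7.69 and 30.8), CTD deletion 1 and 2 (6.07 and 7.67), the wild type of the SOX2 set (27.7) and SOX2 (26.7). Wild type 1 had no peak. The fusion entry failed with a global IDR of 0.266 and inputs with -log10 p of 23.0 and 5.83. The site thus counted as lost with the fusion although 1 input was close to the wild-type value.

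Inside PDGFRA, 10 of 11 sites of the gene body were called somewhere, none in more than 4 lists. Of all sites of the genome 22.9% were called in no list. The shares called in 5, 6, 7, 8 and 9 lists were 2.59%, 1.85%, 1.61%, 1.4% and 1.62%. These counts are therefore not read as a trait of the gene body. The site at +44.0 kb of the downstream start (chr4:54277638-54278305) was called in CTD deletion 2 (11.4), the wild type of the SOX2 set (10.1), SOX2 (10.6) and the fusion (8.81). That at +47.5 kb (chr4:54281090-54281913) had 3.78 in wild type 1, 20.2 in the wild type of the SOX2 set and 5.99 in the fusion. Its SOX2 entry failed (IDR 0.176, inputs 6.4 and 10.6), which made it the strongest loss with SOX2 in the stretch. At +36.5 kb a site was called in full length 1 (9.33) and CTD deletion 2 (8.62) only.

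A site at -63.7 kb of PDGFRA (chr4:54164885-54166306), outside any gene, had the highest SOX2 and fusion values of the PDGFRA side. All 6 lists of the FOXA2 set called it, at 12.1, 18.6, 5.49, 14.5, 18.2 and 9.15, with deposited fold enrichments over the library's own background of 6.52, 8.11, 4.07, 7.16, 7.18 and 5.43. Both libraries labelled wild type were among them. In the SOX2 set SOX2 had 35.6 (rank 2773 of its list) and the fusion 46.5 (rank 49), while the wild-type entry failed at an IDR of 0.342. Its inputs were 5.46 and 35.9, so 1 of the wild-type inputs was as high as SOX2's lower input. It counted as gained with both SOX2 constructs, in place 263 of 34656 gains with SOX2 and 5 of 44687 with the fusion, although both libraries labelled wild type in the FOXA2 set called it.

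KIT, the stem cell factor receptor, was the only one of the 3 genes without a called site within 1 kb of a start. The gap between the last called site before its start and the first after it was 445.1 and 194.6 kb in wild type 1 and 2, 7.2 and 92.4 kb in full length 1 and 2, and 65.9 and 55.6 kb in CTD deletion 1 and 2. In the SOX2 set it was 28.0 kb in the wild type, 29.2 kb with SOX2 and 86.4 kb with the fusion. In the FOXA2 set the gap narrowed with each step up in list length, so construct and list length cannot be told apart there. Over the gene itself 0, 0, 3, 1, 4, 3, 1, 1 and 0 sites were called, and no list called a site closer to the KIT start than 3.5 kb on either side. Over the KDR gene body, its start site left out, the counts were much alike, at 0, 0, 3, 1, 3, 3, 0, 1 and 1. Gaps around the starts of PDGFRA and KDR were not measured.

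Before KIT, the site at -71.6 kb (chr4:54585664-54586972) was the most widely called, in every list but wild type 1, at 13.4, 8.68, 20.0, 10.7, 11.5, 14.0, 12.8 and 11.4. The site at -132.2 kb (chr4:54525146-54526279) went the other way. It was called in both libraries labelled wild type (6.24 and 17.5) and in neither full-length library, with 4.93 in CTD deletion 2 alone. In the SOX2 set it had 29.4 in the wild type, 6.92 with SOX2, and a failing fusion entry (IDR 0.157, inputs 4.74 and 4.3). It was the only site of the stretch lost with full-length FOXA2, and it was also lost with the fusion.

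At -158.8 kb (chr4:54498374-54499882) the fusion had one of its stronger gains of the stretch, with 25.0 at percentile 96.45 against 8.93 with SOX2. The wild-type entry failed (IDR 0.259), with inputs of 30.8 and 8.01. Wild type 2 and all 4 construct libraries of the FOXA2 set called the site, at 16.5, 6.37, 17.7, 8.19 and 8.77. As at -63.7 kb of PDGFRA, the gain rested on a wild-type entry whose inputs differed.

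Beyond the end of KIT, 2 sites at the non-coding gene LOC105377657 (54756125-54818684) stood out by their lists. The site at +108.0 kb of the KIT start (chr4:54765599-54766387) was called in both full-length libraries (10.6 and 27.1) and both CTD deletion libraries (9.44 and 11.1). Neither library labelled wild type had a peak there, and no list of the SOX2 set had an entry at any IDR. Its deposited fold enrichments were 6.3, 10.9, 5.41 and 6.86. Among gains genome-wide, ranked by mean percentile over the libraries, it came in place 818 of 24971 with full length and 811 of 24781 with the CTD deletion. This was the only site of the stretch gained with both FOXA2 constructs.

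The other, at +98.0 kb (chr4:54755341-54756559), overlaps the annotated end of LOC105377657 nearest KIT. CTD deletion 1 and 2 had 7.37 and 9.42, full length 2 had 7.71, SOX2 had 9.55 and the fusion 8.57. Wild type 1 and 2 and full length 1 had no peak, and the wild-type entry of the SOX2 set failed, with inputs of 2.63 and 12.3. It was the only site gained with a FOXA2 construct and a SOX2 construct, 1 of 13 CTD deletion gains, where SOX2 shared 11.5% and the fusion 13.2% of all such gains. At +224.9 kb (chr4:54882362-54883278) SOX2 had 20.8 and the fusion 15.4, with no peak or entry at any IDR in the other 7 lists.

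**Figure D2:**
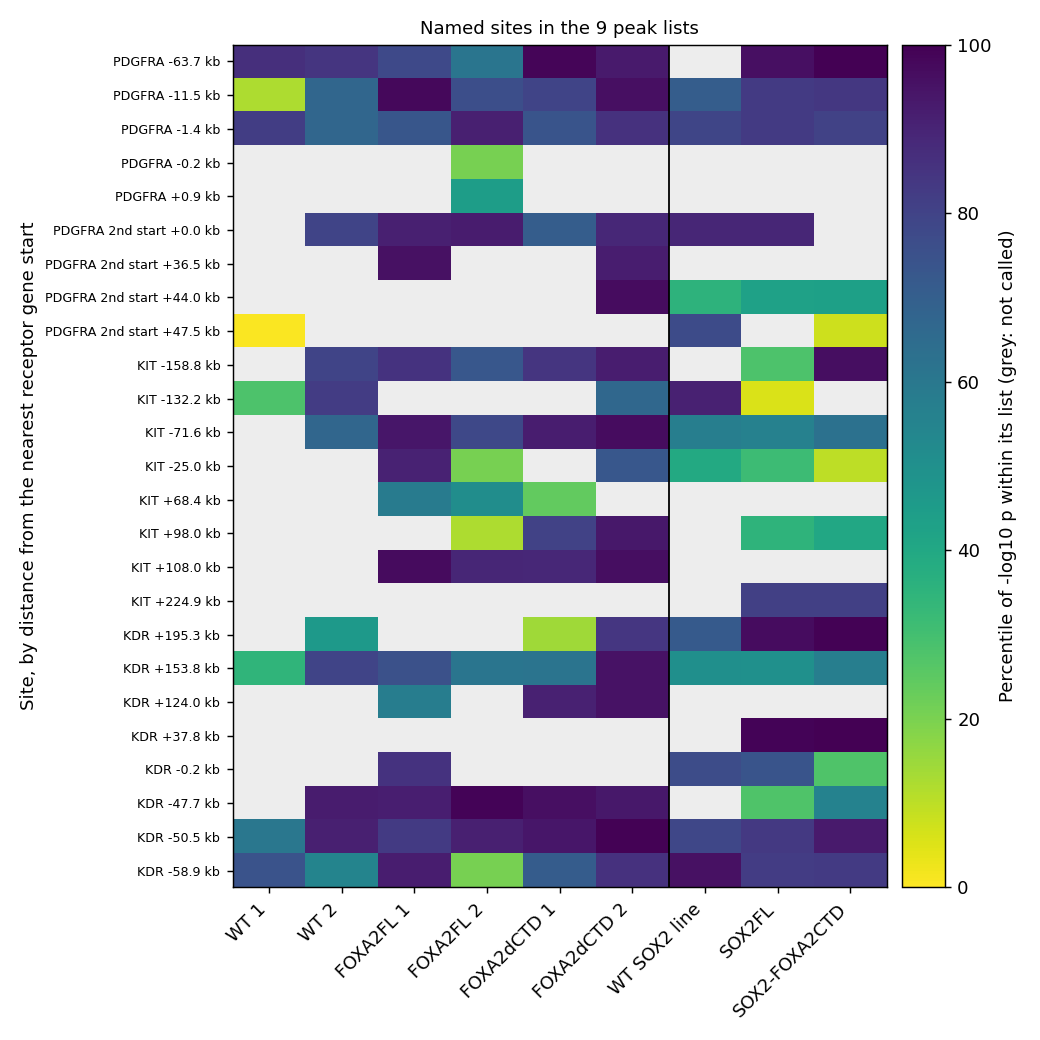
Percentile of -log10 p within its list (colour) for the 25 named sites (rows, by distance in kb from the nearest start) in the 9 lists (columns); grey marks a site not called. The site at KDR +37.8 kb is dark in the SOX2 and fusion columns only, and KIT +108.0 kb in the 4 FOXA2 construct columns only.

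KDR, the VEGF receptor, held the site for which the stretch was chosen. It lies inside the gene, at +37.8 kb of the start of a gene of 47.1 kb, and spans 1445 bp (chr4:55087054-55088498). Whether it is exonic or intronic was not looked up, since no exon annotation was used. In the FOXA2 set all 6 lists were empty at this position. The wild-type entry of the SOX2 set had inputs of 2.1 and 3.0 and failed with an IDR of 0.526. SOX2 had 47.4, from inputs of 47.4 and 51.0, and the fusion 55.0, from inputs of 62.4 and 55.0. These are the values that chose the site, and they are given without a comparison between lists.

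Within the lists this KDR site was rank 732 of 65628 with SOX2 (percentile 98.89) and rank 18 of 75544 with the fusion (percentile 99.98). It was the highest of 4898 passing fusion entries on chromosome 4. Among gains it came in place 46 of 34656 with SOX2 and in place 2 of 44687 with the fusion. The fusion gains around it had -log10 p of 60.8 in place 1, 49.6 in place 3 and 49.0 in place 4. SOX2 without the FOXA2 CTD called the site too, so it was not among the fusion-only sites, and the difference between 47.4 and 55.0 has no replicate check.

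**Figure D3:**
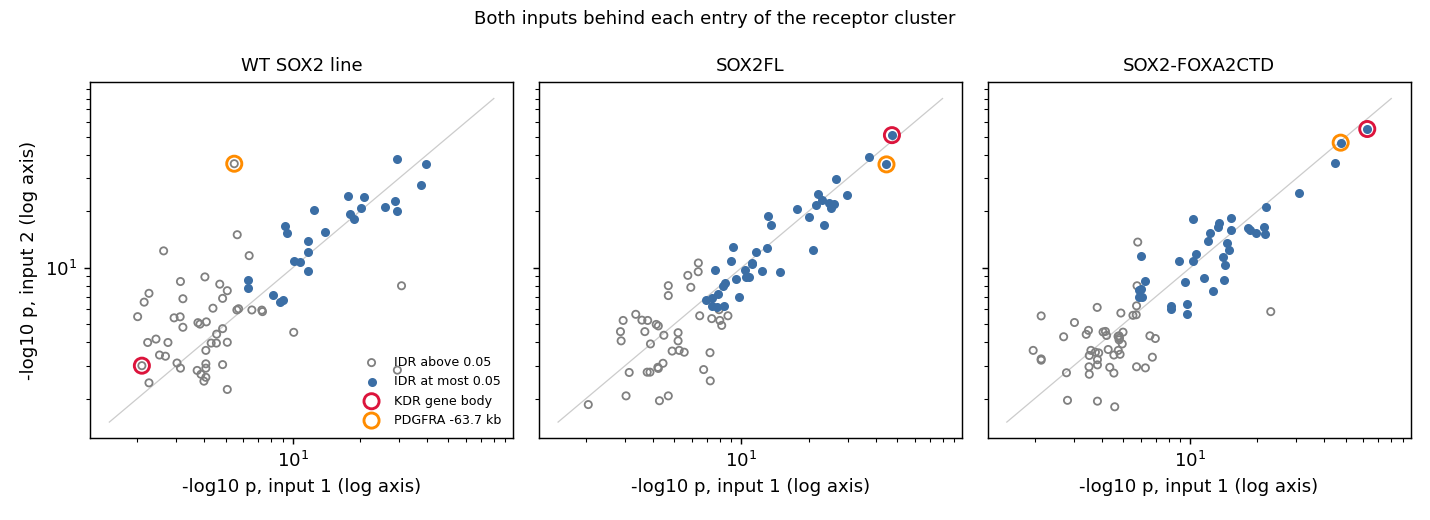
Values of -log10 p of input 1 (x) and input 2 (y), both on log axes, for every entry of the stretch in the 3 lists of the SOX2 set; filled points passed an IDR of 0.05, and the grey line marks equal inputs. The KDR site (red ring) lay at 2.1 and 3.0 in the wild type panel and at the top right of both construct panels, while PDGFRA -63.7 kb (orange ring) had 1 high and 1 low input in the wild type.

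The KDR start had its own site (chr4:55125106-55126454), which overlaps the printed KDR sequence. It was called in full length 1 (6.43), in the wild type of the SOX2 set (20.1), with SOX2 (17.8) and with the fusion (7.55), and in no other list. Since the SOX2-set wild type had it, it was not a gain. Its percentile was 76.89 in that wild type, 74.18 with SOX2 and 27.67 with the fusion, which has no replicate check.

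Upstream of KDR lay a group of 3 sites. Those at -50.5 kb (chr4:55175454-55176667) and -58.9 kb (chr4:55183876-55185073) were called in all 9 lists. At -50.5 kb the values were 8.34, 23.0, 5.99, 29.6, 11.8, 18.6, 21.0, 22.2 and 21.0. At -58.9 kb they were 9.87, 11.5, 7.91, 8.61, 6.1, 7.04, 35.8, 21.5 and 16.2. The site at -47.7 kb (chr4:55172661-55174007) held the highest value of the stretch in the FOXA2 set, 61.1 in full length 2 with a fold enrichment of 19.4 (rank 493 of its list). Full length 1 had 7.79 (fold 4.31) there, wild type 2 had 24.2, and CTD deletion 1 and 2 had 13.2 and 9.47. Within their lists these were percentiles 91.48, 92.24, 95.9 and 93.69, beside 99.15 in full length 2. Wild type 1 had none. The full-length values lay on either side of that of wild type 2. In the SOX2 set it was gained, with 8.88 for SOX2 and 10.4 for the fusion against a failing wild-type entry (IDR 0.178, inputs 4.55 and 4.42).

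Between KIT and KDR lay a site at +195.3 kb of the KDR start (chr4:54929640-54931027). Within the SOX2 set it had 18.0 in the wild type (percentile 71.58), 37.2 with SOX2 (96.49) and 36.0 with the fusion (99.56, rank 337). In the FOXA2 set wild type 2 had 10.5 (percentile 46.38) and CTD deletion 1 and 2 had 3.3 (14.17) and 6.72 (84.16). The site at +153.8 kb (chr4:54971407-54972179) was the fifth called in all 9 lists, at 6.65, 16.5, 5.15, 14.5, 5.42, 10.1, 12.5, 11.6 and 10.6. At +124.0 kb (chr4:55001258-55002028) CTD deletion 1 and 2 had 9.95 and 10.2, full length 1 had 3.78, and no wild type called it. That site was gained with the CTD deletion, in place 769 of 24781.

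Gains and losses over the stretch were then counted. A site was gained with a FOXA2 construct when both its libraries called it and neither library labelled wild type did, and gained with a SOX2 construct when its list called it and the wild-type list did not; losses were the reverse. Shares are of the sites called in the set, 137 in the FOXA2 set and 53 in the SOX2 set. Their Wilson 95% intervals cover counting error only and treat neighbouring sites as independent. With 2 libraries against 2 the smallest two-sided p of an exact permutation test is 0.333, and the SOX2 set has 1 list per group, so no count carries a p-value. The labels call the samples of a group biological replicates and say nothing more of how they were grown apart.

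Full-length FOXA2 had 4 gained sites, 2.92% (1.14 to 7.27), where 9.39% of all sites of the genome were gained. That share lies above the interval, but the interval leaves out the dependence on single libraries given below, and the difference was not tested. The CTD deletion had 13, 9.49% (5.63 to 15.6), beside 9.32% genome-wide. One site was lost with full length, 0.730% (0.129 to 4.02), beside 0.153% of all sites. None of 137 was lost with the CTD deletion, where a count of 0 allows a share of up to 2.19% by the limit of 3 counts and 2.73% by the Wilson interval, beside 0.0553% of all sites. Both full-length libraries shared 15 sites of the stretch and both CTD deletion libraries 26. Of the 137 sites, 98 were called in a single library, 32 of them in full length 1, 27 in CTD deletion 1 and 32 in CTD deletion 2. These counts were not made over all sites, so they are not read as a trait of the stretch. Over all 9 lists, sites called in 1 list made up 45.8% of the stretch and 46.9% of all sites.

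All 4 sites gained with full length lay between PDGFRA and KDR, at -55.0, -25.0, +68.4 and +108.0 kb of the KIT start. Most called sites of the stretch lay there too, by the counts per place given below. At -25.0 kb (chr4:54632229-54633623) full length 1 and 2 had 7.46 and 8.61, CTD deletion 2 had 5.12, and the lists of the SOX2 set had 10.7, 9.15 and 6.25, its wild type included. The site at +68.4 kb (chr4:54726068-54726684), inside KIT, had 3.88 and 12.4 in full length and 3.59 in CTD deletion 1. One of the 4 was called in both CTD deletion libraries, against 48.0% of all full-length gains. Of the 13 gained with the CTD deletion, 6 lay between PDGFRA and KIT, 5 between KIT and KDR, 1 in KIT and 1 in KDR. Of the 159 sites called in some list, 49, 52, 8 and 9 lay in these places, in the same order. The places are therefore not read as a trait of the gains of either construct. One of these 13 was called in both full-length libraries, against 48.4% genome-wide. Both constructs share their wild-type libraries, so these counts are not independent.

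These FOXA2 counts turned on single libraries, in the stretch and across the genome. The shares that follow keep the main totals, 137 sites of the stretch and 265939 of the genome, in every setting. The totals were not lowered where libraries or peaks were left out. Without full length 2 there were 42 gains with full length (30.7%, beside 49.1% of all sites), without full length 1 there were 14 (10.2%, beside 12.5%), and without wild type 2 there were 9 (6.57%, beside 12.2%). By these fixed totals the share in the stretch was the lower one in each of these settings, which have libraries in common and are not independent. The CTD deletion had 49 gains without its library 1 (35.8%, beside 42.9%), 42 without its library 2 (30.7%, beside 19.9%) and 20 without wild type 2 (14.6%, where 32033 of all 265939 sites were gained), so its share lay on either side of the genome's. Losses with full length were 4 without wild type 1 (2870 over all sites) and 2 without wild type 2 (3098), beside 407 over all sites in the main count. For the CTD deletion 1 was lost without wild type 1 (3277 over all sites), 1 without wild type 2 (1683) and 1 without its own library 2 (734). Among lists with mitochondrial peaks, 50 sites were gained (36.5%, beside 52.4%) and 2 lost with full length 1 against wild type 1, and 20 gained and 1 lost with the CTD deletion. Among those without, full length 2 against wild type 2 gave 14 gained (10.2%, beside 13.8%) and 7 lost (4927 over all sites). With the strongest 19862 peaks of each list, gains were 1 (0.730%, beside 1.44%) with full length and 3 (2.19%, beside 1.10%) with the CTD deletion. Losses were 3 and 3, beside 2242 and 1767 over all sites.

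SOX2 had 22 gained sites, 41.5% (29.3 to 54.9), beside 33.9% of all sites, and 8 lost, 15.1% (7.85 to 27.1), beside 16.9%. The fusion had 21 gained, 39.6% (27.6 to 53.1), beside 43.7%, and 8 lost, 15.1% (7.85 to 27.1), beside 17.0%. Fusion-only sites numbered 6, 11.3% (5.29 to 22.6), beside 19.4%, and SOX2-only sites 7, 13.2% (6.55 to 24.8), beside 9.63%. Each of these 6 intervals holds its genome-wide share. The KDR site that chose the stretch is among the gains of both constructs, so this is a description and no test.

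**Figure D4:**
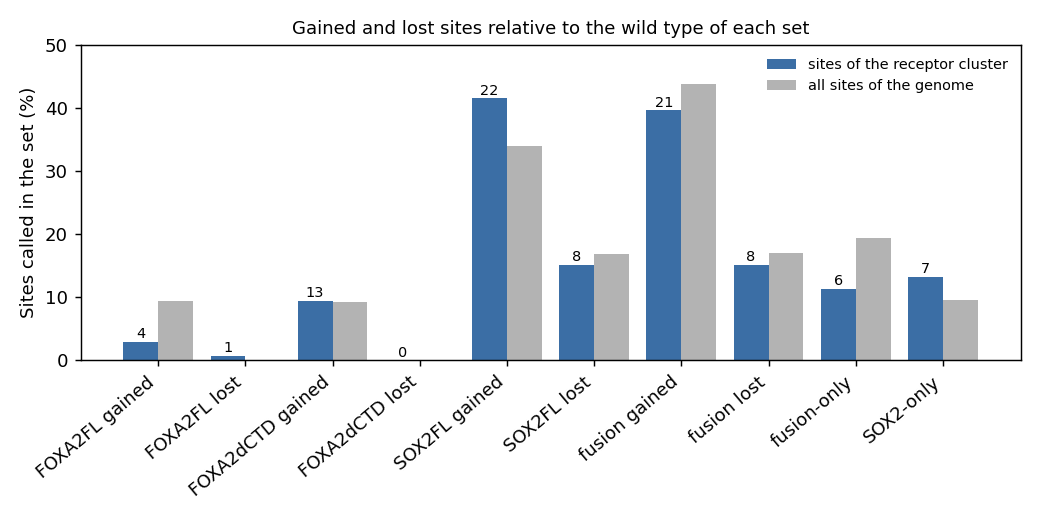
Share of sites gained or lost, in percent of the sites called in the set, for the receptor stretch (blue, with its number of sites) and for all sites of the genome (grey). FOXA2 full length had 2.92% gained against 9.39% of all sites; the CTD deletion had 9.49% against 9.32%, and SOX2 41.5% against 33.9%.

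The SOX2 constructs shared most of their gains here: 15 sites were gained with both, which is 15 of 22 with SOX2 and 15 of 21 with the fusion. Genome-wide 71.6% of SOX2 gains and 55.5% of fusion gains were called with the other construct. They share the wild-type list, so this overlap is a description. Of the 15 sites, 8 were called in no list of the FOXA2 set, beside 59.5% of the 24806 such sites of the genome. At 5 of them the wild-type list held no entry, passing or failing, beside 66.6%. A failing wild-type entry lay under 13 of the 22 SOX2 gains (37.2% genome-wide) and 11 of the 21 fusion gains (27.9%). Similarly 4 of 6 fusion-only sites had a failing SOX2 entry (73.9% genome-wide) and 6 of 7 SOX2-only sites a failing fusion entry (91.1%). Counting a site as not called only where no entry existed left 9 gains with SOX2 and 10 with the fusion. Over all sites that setting took the gains from 34656 to 21750 and from 44687 to 32205. With the strongest 48142 entries of each list the gains were 12 and 13, beside 21905 and 24877 over all sites.

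The fusion-only sites of the stretch lay at +34.4 kb of the downstream PDGFRA start (8.35), -10.1 and +231.6 kb of KIT (6.43 and 5.99), and +165.9, -55.6 and -89.7 kb of KDR (15.2, 6.24 and 5.89). SOX2-only sites ran from 6.16 to 8.66. The strongest sites gained with SOX2 after those of KDR and PDGFRA -63.7 kb were KIT +224.9 kb, the downstream PDGFRA start +82.5 kb (18.7, and 13.3 with the fusion) and PDGFRA -44.1 kb (17.0 and 15.3). No list of the FOXA2 set called any of these 3. Of the losses, 6 were shared by SOX2 and the fusion, a number that was not counted over all sites.

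The libraries labelled wild type can be set beside each other too. Wild type 1 and 2 shared 7 sites of the stretch, 6 of which passed in the wild type of the SOX2 set, where the other had an entry that failed. Of the 25 sites called in that wild type, 11 were in neither of the others. Among the 28 sites gained with either SOX2 construct, 3 were called in a library labelled wild type of the FOXA2 set. These overlaps were not counted over all sites, so they are not read as a trait of the stretch.

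By median, the strength of the called sites lay on either side of the middle of their lists. Of the peaks of the stretch, 32.9% in CTD deletion 2, 30.8% in the fusion and 27.5% in SOX2 lay above the 80th percentile of the list. In the other lists the share ran from 15.8% (CTD deletion 1) to 25.0% (wild type 1). The median percentile of the called sites was 47.3, 67.0, 57.7, 44.5, 33.2, 62.5, 50.3, 42.8 and 60.0 in the 9 lists, where 50 is the middle of a list. The highest was 86.4 and 92.24 in wild type 1 and 2 and 99.98 in the fusion. Sites called in 1 list made up 45.8% of the stretch and 46.9% of all sites, and those called in all 9 lists 2.31% and 1.62%.

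**Figure D5:**
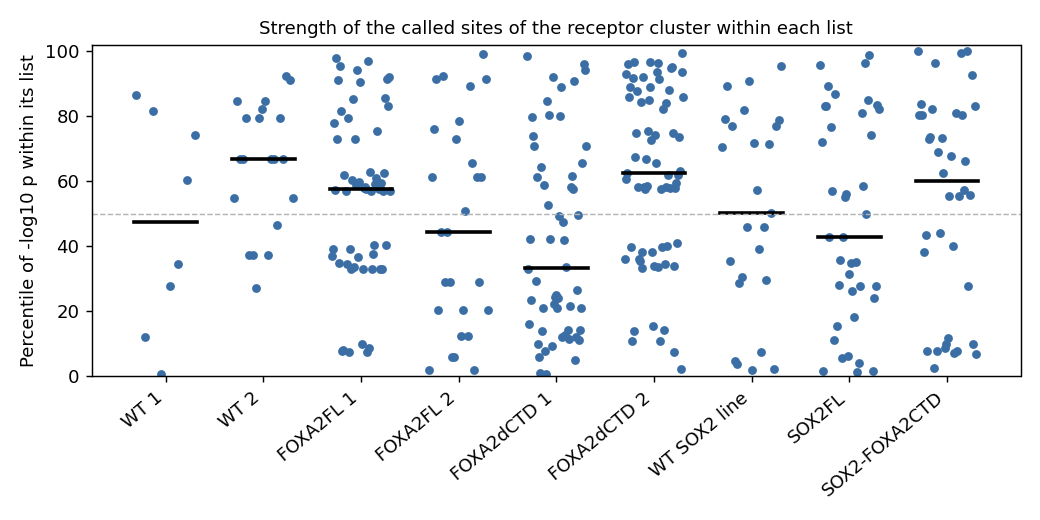
Percentile of -log10 p within its list for each called site of the stretch (points, spread sideways only for visibility); black bars are medians and the dashed line is the middle of the list. Medians ran from 33.2 in CTD deletion 1 to 67.0 in wild type 2, and the fusion list held points up to 99.98.

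Other genes of the same signalling systems were looked at by the same measure. Starts were known for 12 of 17. Among the ligands, PDGFD and KITLG, the ligand of KIT, had a peak within 1 kb of a start in 7 lists, PDGFA and VEGFC in 6, and VEGFB and PGF in 5, while VEGFD had none. Among related receptors, PDGFRB, the partner of PDGFRA, was called in all 9 lists, CSF1R in 2, and FLT3 and FLT1 in none. The co-receptor NRP2 had none. PDGFB, PDGFC, VEGFA, FLT4 and NRP1 had no start in the table used. Over their gene bodies, 5 of the 17 had a gained site with full-length FOXA2, 7 with the CTD deletion, 13 with SOX2 and 12 with the fusion, and 1, 1, 10 and 8 had a lost one, in the same order. Of 19974 protein-coding genes, 34.3%, 31.1%, 33.7% and 35.8% had a gained site over the gene and 0.831%, 0.295%, 24.6% and 27.2% a lost one. These genes differ in length, and longer genes hold more sites. Within the cluster PDGFRA, KIT and KDR gave 1, 2, 2 and 2 genes with a gained site in the same order.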

How the data were processed

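Peak lists of U2OS ATAC-seq samples were used; reads were not. The submitters' processing notes name FastQC 0.10.1, Trim Galore, Bowtie2 2.4.4, SAMtools 0.1.18, MACS2 and deepTools 2.4.1, with build hg38; roles, settings and versions of the others are not given in the sources used here. The deposited lists of the FOXA2 set give fold enrichment (a ratio) and -log10 p per peak; those of the SOX2 set have the layout of the IDR procedure, where the deposited -log10 p is the lower of its inputs' values, the deposited score restates the IDR, and no fold is given. These values are the authors'. Peaks on chromosomes 1-22 and X of all lists were merged into sites; a list called a site when a peak overlapped it by at least 1 bp, in the SOX2 set at a global IDR of at most 0.05. Counts and percentiles were computed with Python 3.11.15, pandas 2.3.3 and numpy 2.4.6, Wilson intervals with scipy 1.17.1, and the site caller was tested on simulated lists. Depth is unknown. Named sites were those at a receptor start, the 3 strongest of each list, the 3 strongest gains and the strongest loss per construct (for 2 libraries, by mean percentile), those called in all 9 lists, those gained in both sets, and the KDR site; sites outside this rule were named after their values were seen. Members and gene lists were chosen with earlier results of these data known. Motifs in sites and exon annotation were not analysed here. Alternatives covered thresholds, list lengths, overlap, site definition, single libraries and lists with or without mitochondrial peaks.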

Additional observations from a re-analysis of the deposited data

Results flagged for a closer look

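One site, 144.5 kb downstream of the downstream PDGFRA start (chr4:54377882-54378953), went opposite ways in the 2 sets. It was gained with the FOXA2 CTD deletion (-log10 p of 3.28 and 4.1, no peak in either library labelled wild type) and lost with SOX2 and with the fusion. The wild type of the SOX2 set had 9.55, SOX2 had no entry, and the fusion entry failed (IDR 0.511, inputs 3.02 and 5.1). Genome-wide 7.51% of the CTD deletion gains were lost with SOX2 and 7.84% with the fusion, beside 1 of 13 here (7.69%), so the share here is near the background. The difference between the sets was not tested.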

How the results depend on the processing

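Of 76 alternative values, 33 were labelled as unmoved and 43 as moved, and the cause was not tested. For counts, unmoved meant within 1.5 times the count given. The KDR percentile was set against an interval of 99.964 to 99.986 with 0.01 added at its upper end. That interval is no measure of uncertainty, since the site was chosen for its rank. With the strongest 19862 peaks per list, full length had 1 gained and 3 lost, the CTD deletion 3 and 3. At a common -log10 p of 5.43, gains were 2 and 4 (12966 and 6570 over all sites) and losses with the CTD deletion 1 (838). With peaks covering 50% of a site, full length had 0 lost (92 over all sites) and the CTD deletion 8 gained (13658). Among lists with mitochondrial peaks, full length had 50 gained and 2 lost (139273 and 3830 over all sites). The CTD deletion had 20 and 1 (32033 and 1683) there. For the CTD deletion this is the same comparison as without wild type 2, so these values are counted under both settings among the 76 and the 43. Among lists without mitochondrial peaks, full length had 14 and 7 (36576 and 4927). Leaving out single libraries gave 4 to 42 gained and 1 to 4 lost for full length, 13 to 49 and 0 to 1 for the CTD deletion. With all entries whatever their IDR, SOX2 had 37 gained and 33 lost (71325 and 34807 over all sites) and the fusion 36 and 26 (97050 and 31370). Fusion-only sites were then 17 (44119) and SOX2-only sites 18 (18394). Requiring no entry at any IDR for not called gave 9 gained with SOX2 (21750 over all sites) and 10 with the fusion (32205). It gave 3 lost with the fusion (4346), 2 fusion-only (4687) and 1 SOX2-only (572). With the strongest 48142 entries, gains were 12 (SOX2) and 13 (fusion), fusion-only 3 (10106 over all sites) and SOX2-only 2 (7134). At an IDR of 0.01 SOX2-only sites were 3 (8782). The KDR percentile in the fusion list was 100 on chromosome 4 alone. With all entries it was 99.99, above the interval itself, and was labelled as unmoved only by the added 0.01. Where failing entries count, the gains at KDR +37.8 kb, PDGFRA -63.7 kb, KIT -158.8 kb and KDR -47.7 kb end. So do those of the SOX2 constructs at KIT +98.0 kb. The gain at KIT +224.9 kb held in all 6 settings tried by site, as did that at KIT +108.0 kb. Not every setting could act on them. The common -log10 p was applied to the FOXA2 set alone, so it cannot act on KIT +224.9 kb. The IDR settings cannot act on KIT +108.0 kb. With equal numbers of peaks the full-length gains at KIT -25.0 and +68.4 kb end; the former also ends at 50% cover and the latter at the common -log10 p. At 50% cover the CTD deletion gains at KIT +98.0 and KDR +124.0 kb and the SOX2 gain at KIT -158.8 kb end. No paired analysis was possible because the results are counts from peak lists and come from no test; the counts of full length 1 against wild type 1 and 2 against 2 are those by mitochondrial peaks above. The rank by deposited signal value was not run, since that column holds the same placeholder in every entry of the lists of the SOX2 set.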
